A study of Mus musculus with 20 samples.

Results

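Interferon-induced genes and genes of class I antigen processing were described across mouse bladders and metastases, as a list of 40 symbols. A member was measured where a row of the deposited array table carried its symbol alone, and of several such rows the one with the highest mean over all arrays was taken. This gave 37 of the 40 members, out of 30142 genes. Nlrc5 and Gbp5 lay only on rows shared with another symbol and were not used here, and Ifi44 was not analysed here. RNA, extracted with reagents made for FFPE (formalin-fixed) material, was measured on 20 whole-transcript arrays. Every value below is a level or a difference on a scale taken as log2. All animals were CKO mice on the FVB/N background, which carry Rb f/f with other floxed alleles and are p107-/-, so the controls lacked p107 as well. The treated bladders (3 arrays) had been inoculated with an adenovirus encoding Cre recombinase, which deletes floxed alleles in the cells it infects, and came from mice given palbociclib, a Cdk4 and Cdk6 inhibitor, at 150 mg/kg daily for 28 days with the platinum compound CDDP at 6 mg/kg once a week. Metastases gave 4 arrays, and 1 further array came from a metastasis whose title also names palbociclib (the palbo metastasis). The labels do not say from which organ a metastasis was taken. Tumour bladders (7 arrays) had received the same adenovirus without the drugs, and normal bladders (5 arrays) came from CKO mice for which no inoculation is named. Nothing states that the arrays came from separate animals, so the p-values measure the spread between these samples, which may be technical, and the small number of arrays limits the precision. The age of the animals is not given in the sources used here.

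Interferons are secreted when cells sense viral or displaced nucleic acid, or, for interferon gamma, when lymphocytes are activated. Type I and type III interferons act through a complex that contains Stat2 and Irf9 and binds the interferon-stimulated response element (ISRE), whereas interferon gamma acts through the gamma-activated site (GAS). The induced genes block viral replication at many steps and raise the display of peptides on class I molecules, and in tumours they are read as a record of interferon reaching tumour, stromal and immune cells.

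The ISRE core was looked for in the promoters because it is what many of these genes are known to share, apart from their levels. Promoter windows from 250 bases before to 50 bases after a gene's start, taken from RefSeq on GRCm38.p6, matched 28 of the 37 measured members. The other 9 were Mx1, Mx2, Oas2, Parp14, Usp18, Dhx58, Zbp1, Iigp1 and Tap2. The core, searched as GAAANNGAAA on both strands, was present in 16 of the 28 members (57.1%), against 1079 of 27025 genes with a window (3.99%). The GAS core, searched as TTCNNNGAA on both strands, was present in 7 of 28 (25.0%), against 9.55% of genes. Oas1a, Bst2, Gbp7 and Igtp held both cores, which overlapped in 1 of these 4 members. A match is a description of the letters and no measure of binding. The 8 stretches below belong to members whose levels are described further on, and show the core in capitals with up to 20 bases on either side, 5′ to 3′ along the gene's own strand. Oas1a lies at chr5:120907510-120907565 on the minus strand, Trim30a at chr7:104465200-104465249 (minus), Igtp at chr11:58199502-58199551 (plus) and Gbp7 at chr3:142530263-142530312 (plus). Bst2 lies at chr8:71537567-71537622 (minus) and Isg15 at chr4:156200855-156200916 (minus), where cores overlap in a row. Ifit3 at chr19:34583353-34583402 (plus) and B2m at chr2:122147528-122147577 (plus) are shown because they held a core and yet did not follow the other members across arrays. Where the core lies on the other strand, it reads as its reverse complement.
Oas1a: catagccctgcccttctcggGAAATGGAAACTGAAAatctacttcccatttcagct
Trim30a: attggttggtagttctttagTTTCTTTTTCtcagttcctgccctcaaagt
Igtp: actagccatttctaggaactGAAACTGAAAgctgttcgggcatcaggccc
Gbp7: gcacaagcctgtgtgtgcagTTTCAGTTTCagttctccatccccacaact
Bst2: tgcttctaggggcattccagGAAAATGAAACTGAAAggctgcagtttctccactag
Isg15: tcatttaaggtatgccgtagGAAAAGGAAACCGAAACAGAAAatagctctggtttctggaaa
Ifit3: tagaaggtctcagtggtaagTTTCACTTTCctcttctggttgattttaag
B2m: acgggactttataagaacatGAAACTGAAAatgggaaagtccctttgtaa
The capitals make visible that Oas1a and Bst2 carried 2 cores run together and Isg15 carried 3, while the others shown have a single core in the stretch. The second core of Ifit3 lies elsewhere in its window, and Trim30a has a further annotated start, not shown, whose window also holds a core.

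Array medians lay between 5.11 and 5.48. On 8 arrays (metastases 3 and 4, tumour bladders 3, 4 and 5, and normal bladders 4, 5 and 6) the deviations of bright genes from their means correlated at most at 0.21 with those of any other array, against at least 0.26 for each of the other 12. These arrays of low correlation also had an SD over 0.30 in dim rows, and held no treated bladder. They were singled out from the data, so the members' median is also given without them for tumour against normal and for treated against normal bladders. For the other comparisons the closing section gives its range over the alternatives, which include leaving these arrays out. On these 8 arrays marker levels hardly differed between normal bladders, tumour bladders and metastases. Means ran from 6.65 to 6.86 for smooth muscle and from 6.89 to 7.21 for luminal urothelium markers, and Xist from 6.74 to 7.19. The reported fits include these arrays in the normal, tumour and metastasis groups. Marker levels varied widely over the other 12. The mean of 9 luminal urothelium markers was 4.76 on the palbo metastasis, 5.41 on metastasis 1 and 5.42 on tumour bladder 6, the lowest 3 of the 20 arrays, and 10.59 on tumour bladder 7, the highest. Xist, which coats an inactive X, ran from 5.43 to 5.86 over the 4 tumour bladders and 2 metastases of the 12, against 11.74 and 11.71 for the 2 normal bladders (1 and 2), and was at 10.05 on treated bladder 3. The Y-linked Eif2s3y was at 4.66 on tumour bladder 6, between 5.59 and 6.43 on the other tumour bladders and metastases of the 12, and at 4.70 and 4.76 on normal bladders 1 and 2. The labels give no sex, and its part in the results was not tested.

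The highest levels of most members lay together on a few arrays. On tumour bladder 6, 22 of the 37 members had their highest level of all 20 arrays and 35 lay above their own mean, with a median deviation from that mean of 0.57. The palbo metastasis held the highest level of 8 members and 1 of the 3 highest levels of 30, with a median deviation of 0.42. On metastasis 1 the median deviation was 0.35, with 33 members above their mean. All genes together had median deviations of -0.10, 0.03 and -0.09 on these 3 arrays. The share of all genes above their mean was 37.8% on tumour bladder 6 and 38.7% on metastasis 1. At the other end, metastasis 2 had a median deviation of -0.26, tumour bladder 7 of -0.24, with 1 of 37 members above its mean, and normal bladder 2 of -0.21. All genes had -0.02 on each of these arrays, with 46.4% of genes above their mean on tumour bladder 7. The treated bladders 1, 2 and 3 had median deviations of 0.00, -0.19 and -0.21, inside the range of the normal and tumour bladders. Over all genes their median deviations were -0.02, 0.00 and -0.10. In such bulk tissue, fewer cells of a type and less RNA per cell cannot be told apart.

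**Figure D1:**
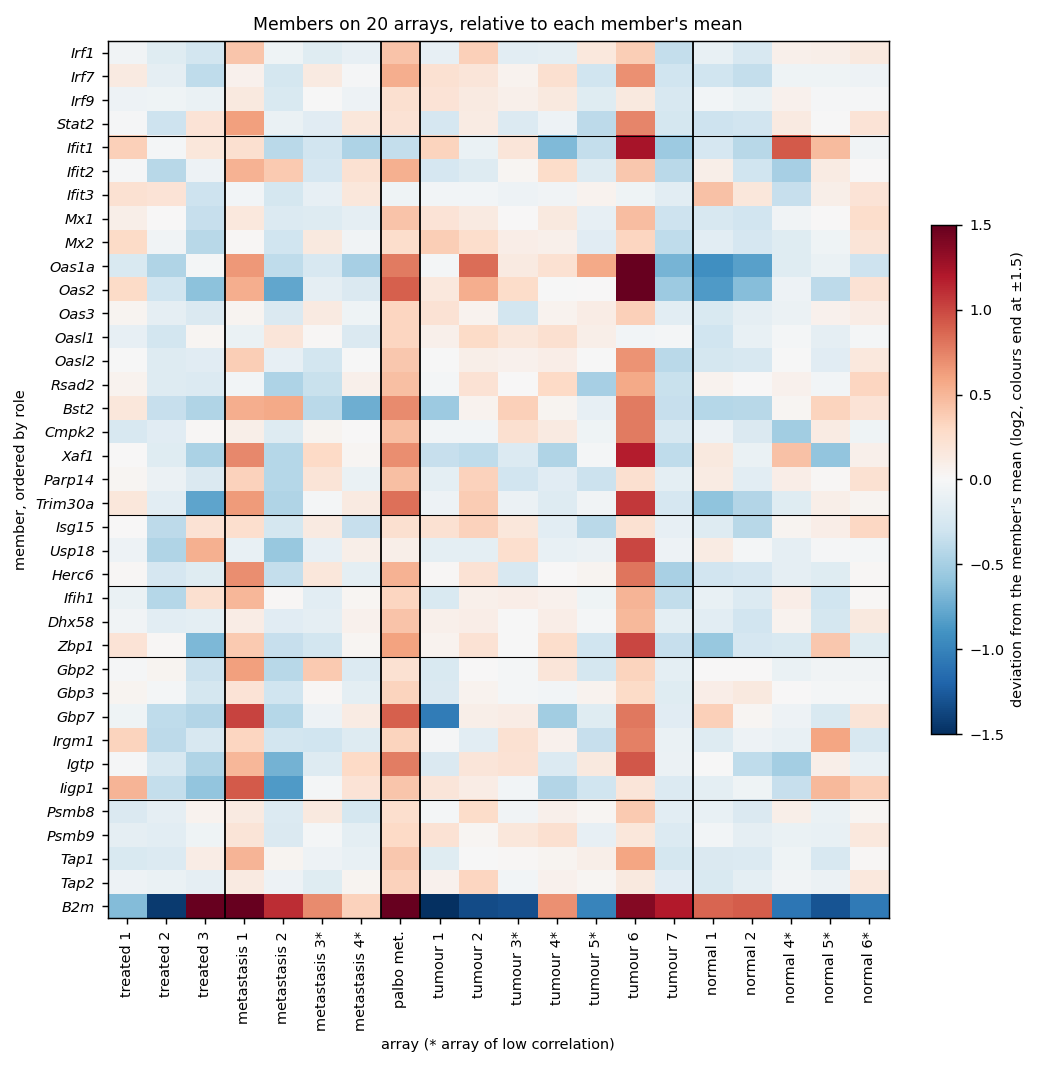
Deviation of each of the 37 members (rows, grouped by role) from its mean over the 20 arrays (columns), in log2 units, with colours ending at 1.5 in either direction and arrays of low correlation marked by asterisks. Tumour bladder 6, the palbo metastasis and metastasis 1 stand out as red columns, and B2m in the bottom row varies far more than the rest and in another pattern.

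**Figure D2:**
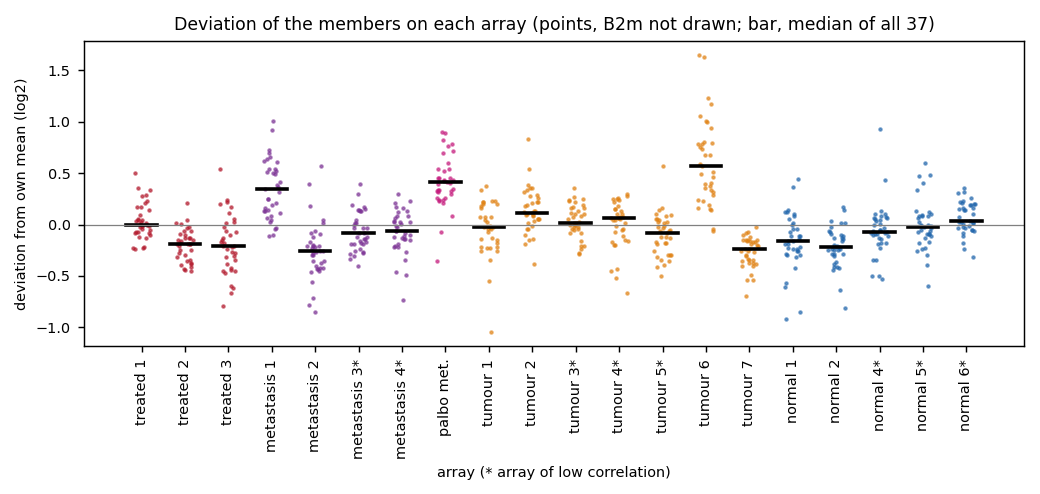
Deviation of the members from their own means on each array, in log2 units, with 1 point per member (B2m is not drawn) and a bar at the median of all 37. The medians are 0.57 on tumour bladder 6, 0.42 on the palbo metastasis and 0.35 on metastasis 1, and at most 0.12 on every other array.

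Levels of immune markers differed on the same arrays. The mean of 10 macrophage markers was 7.76 on metastasis 1, 7.55 on the palbo metastasis and 6.69 on tumour bladder 6, but also 7.05 on metastasis 2, where the members were low. Over the remaining 16 arrays it ran from 5.41 on treated bladder 3 to 6.45 on tumour bladder 2. The mean of 8 neutrophil markers was 8.22 on tumour bladder 6 and 7.86 on the palbo metastasis, and 6.66 on metastasis 1, which was below tumour bladders 2 and 7 (6.80 and 6.92) and treated bladder 1 (6.79). The 10 markers of T and NK cells averaged 5.64 on the palbo metastasis, 5.51 on metastasis 1 and 5.29 on tumour bladder 6, of which the last 2 lie within the range of 5.05 to 5.53 on the other 17 arrays. Smooth muscle markers averaged 5.60 on metastasis 1, 5.02 on the palbo metastasis and 5.57 on tumour bladder 6, against 9.64 on tumour bladder 7 and 8.64 and 8.62 on normal bladders 1 and 2. The part of these cell types in the members' levels was not tested.

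Among the transcription factors of the pathway, Stat2 and Irf7 had ranges of 1.13 and 1.06 log2 units over the 20 arrays, and Irf1 and Irf9 of 0.78 and 0.48. Irf7, which amplifies type I interferon production, was at 5.87, 5.60 and 5.35 on the treated bladders, 5.79, 5.47, 5.87 and 5.71 on the metastases and 6.27 on the palbo metastasis. It ran from 5.43 over a median of 5.91 to 6.41 on the tumour bladders, and was at 5.43, 5.37, 5.66, 5.67 and 5.65 on the normal bladders. Its highest level was on tumour bladder 6, and the groups overlapped. Stat2, a subunit of the factor that binds the ISRE, ranged from 5.99 to 7.12, Irf1, a factor induced strongly by interferon gamma, from 5.53 to 6.31, and Irf9, the DNA-binding subunit, from 5.58 to 6.06 over the 20 arrays. Irf7 was described at each array after its values were seen.

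Among the antiviral effectors, Oas1a and Oas2 had the widest ranges. They are 2′-5′ oligoadenylate synthetases, which activate an RNA-degrading enzyme when they bind double-stranded RNA. Oas1a was at 6.39, 6.17 and 6.59 on treated bladders 1 to 3, 7.27, 6.24, 6.38 and 6.12 on metastases 1 to 4, and 7.40 on the palbo metastasis. On tumour bladders it ran from 5.92 over a median of 6.84 to 8.27, and on normal bladders 1, 2, 4, 5 and 6 it was at 5.70, 5.80, 6.43, 6.52 and 6.30. The highest level was that of tumour bladder 6, 6 of the 7 tumour bladders lay above every normal bladder, and tumour bladder 7 (5.92) lay among the normal ones, so the groups overlapped. Oas2 was at 6.53, 5.94 and 5.62 on treated bladders, 6.78, 5.46, 6.10 and 6.02 on metastases and 7.14 on the palbo metastasis. On tumour bladders Oas2 ran from 5.70 over 6.40 to 7.87, and normal bladders gave 5.39, 5.60, 6.16, 5.85 and 6.46. Normal bladders 1 and 2 were low in both genes, and so was metastasis 2 for Oas2. Oas3 and the related Oasl1 and Oasl2 ranged over 0.63, 0.62 and 1.09 in log2 units, against 2.57 for Oas1a and 2.49 for Oas2.

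Ifit1, whose protein binds viral RNA with a foreign cap and which stands beside Ifit2 and Ifit3 in the genome, had another pattern. It was at 6.03, 5.64 and 5.85 on treated bladders, 5.92, 5.27, 5.39 and 5.21 on metastases and 5.32 on the palbo metastasis. On tumour bladders it ran from 5.01 over a median of 5.57 to 6.91, and on normal bladders it was at 5.42, 5.26, 6.60, 6.15 and 5.62. Its highest levels were on tumour bladder 6 and normal bladder 4, and the palbo metastasis was low in it. Ifit3 stayed between 6.06 and 6.27 on the tumour bladders, including 6.16 on tumour bladder 6, and its highest level of all was 6.66 on normal bladder 1. Trim30a, a ring-finger protein that restrains Toll-like receptor signalling in mice, was at 6.25, 5.92 and 5.28 on treated bladders, 6.71, 5.62, 6.04 and 6.21 on metastases and 6.90 on the palbo metastasis. On tumour bladders Trim30a ran from 5.82 over 6.00 to 7.13, and on normal bladders it was at 5.47, 5.63, 5.89, 6.16 and 6.11. The lowest of the 20 Trim30a levels was on treated bladder 3. The remaining effectors followed tumour bladder 6 in most cases. Bst2, or tetherin, which holds budding virus at the cell surface, ranged from 6.09 to 7.61, and Xaf1, a proapoptotic factor, from 5.70 to 7.47. Rsad2, or viperin, which makes a chain-terminating nucleotide, ranged from 5.02 to 6.09, and its neighbour Cmpk2, a nucleotide kinase, from 4.76 to 6.07. The dynamin-like GTPases Mx1 and Mx2 ranged from 5.14 to 5.95 and from 5.37 to 6.16. Ifit2, a relative of Ifit1, ranged from 5.30 to 6.34, and Parp14, an ADP-ribosyltransferase, from 6.13 to 7.01.

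In the ISG15 system, Isg15, a ubiquitin-like modifier, was at 4.74 to 5.51, Herc6, the mouse ligase that attaches it, at 6.02 to 7.31, and Usp18, the protease that removes it, at 4.98 to 6.55. Isg15 had its highest level on tumour bladder 2, and Herc6 and Usp18 had theirs on tumour bladder 6. The RNA sensor Ifih1 (MDA5) ranged from 5.74 to 6.68, Dhx58 (LGP2), its regulator, from 5.22 to 6.00, and Zbp1, a sensor of Z-form nucleic acid, from 5.23 to 6.90. All 3 sensors had their highest level on tumour bladder 6.

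The interferon-inducible GTPases attack the membranes around intracellular microbes and respond mainly to interferon gamma. Gbp7 was at 6.91, 6.60 and 6.54 on treated bladders, 7.99, 6.55, 6.90 and 7.10 on metastases and 7.87 on the palbo metastasis. On tumour bladders it ran from 5.93 over 6.81 to 7.77, and on normal bladders it was at 7.34, 7.01, 6.90, 6.75 and 7.17. The 3 highest levels were on metastasis 1, the palbo metastasis and tumour bladder 6, and tumour bladder 1 was the lowest array. Gbp2 and Gbp3 ranged from 5.46 to 6.49 and from 5.64 to 6.27. Of the immunity-related GTPases, Irgm1 ranged from 5.40 to 6.55, Igtp from 5.22 to 6.87 and Iigp1 from 5.44 to 7.21.

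Class I processing comprises Psmb8 and Psmb9, catalytic subunits of the immunoproteasome that cuts peptides, Tap1 and Tap2, the transporter that moves the peptides into the endoplasmic reticulum, and B2m, the light chain of the class I molecule. The first 4 varied within narrow limits, from 5.53 to 6.19 for Psmb8, 5.36 to 5.87 for Psmb9, 5.71 to 6.56 for Tap1 and 5.33 to 5.91 for Tap2. B2m varied over 5.09 log2 units, from 9.61 on tumour bladder 1 to 14.70 on treated bladder 3. It was at 12.02, 11.24 and 14.70 on treated bladders, 14.20, 13.78, 13.38 and 13.02 on metastases and 14.20 on the palbo metastasis. On tumour bladders B2m ran from 9.61 over 11.68 to 14.05, and on normal bladders it was at 13.55, 13.58, 11.59, 11.38 and 11.61. Metastasis 1 lay above every tumour bladder and the other 3 metastases within the tumour range, and the treated and normal bladders each split into high and low arrays. The low normal bladders (4, 5 and 6) were the arrays of low correlation, while metastases 3 and 4, also of that set, were at 13.38 and 13.02.

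**Figure D3:**
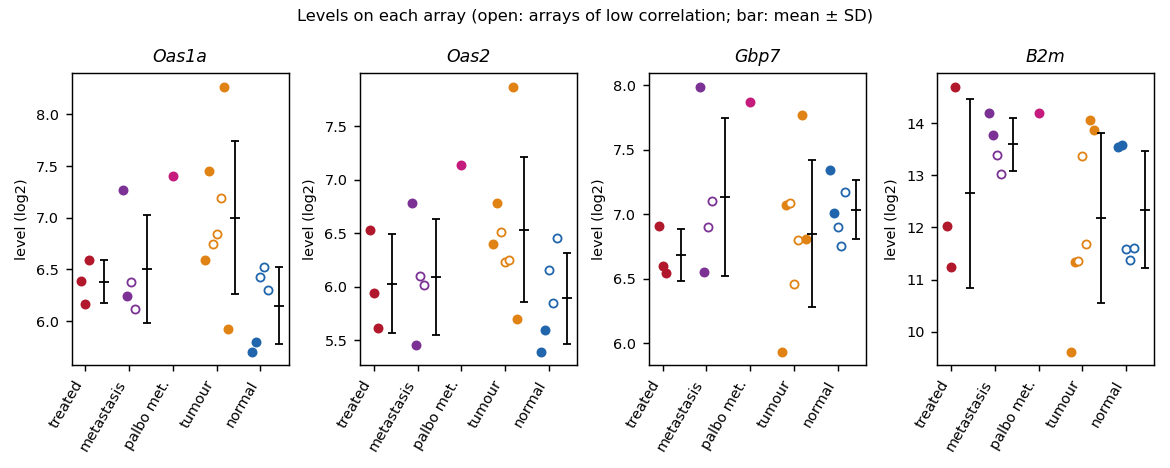
Log2 levels of Oas1a, Oas2, Gbp7 and B2m on each array by group, with open points for arrays of low correlation and the mean ± SD beside each group of more than 1 array. The groups overlap for all 4 genes, and the highest point for Oas1a (8.27) and Oas2 (7.87) is tumour bladder 6.

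Tumour bladders were compared with normal bladders to ask what differs after Cre inoculation. In limma, with Benjamini-Hochberg adjustment over all 30142 genes, 0 of the 37 members were called at an adjusted p under 0.05, as were 0% of all genes, and the smallest adjusted p of a member was 0.998. At an unadjusted p under 0.05, 3 members passed, all higher in tumour bladders, beside 4.25% of all genes. Oas1a averaged 7.0 ± 0.74 in tumour bladders and 6.15 ± 0.38 in normal bladders (SD, n = 7 and 5), a difference of 0.85 (SE 0.31, 95% interval 0.21 to 1.49, limma adjusted p = 0.998). Oas2 averaged 6.54 ± 0.68 in tumour bladders and 5.89 ± 0.43 in normal bladders, a difference of 0.65 (SE 0.31, 95% interval 0.00 to 1.29). Oasl1, at 5.47 ± 0.13 in tumour bladders and 5.23 ± 0.11 in normal bladders, differed by 0.23 (SE 0.09). The mean of Oasl1 over all arrays (5.36) lay below the median gene mean (5.4), as did Oas3 (5.12), Isg15 (5.16) and Cmpk2 (5.29). No member lay below the 40th percentile of all row means (5.1). Trim30a was higher by 0.33 (SE 0.24, 95% interval -0.16 to 0.83), an interval that includes 0. No member had groups that did not overlap (0 of 37, beside 0.166% of genes). Of the 37 members 28 were higher and 9 lower in tumour bladders, with a median difference of 0.11, against 53.1% of all genes higher and a median of 0.01. Tumour bladder 6 held the highest level of 22 members. Without it the differences were 0.64 for Oas1a, 0.42 for Oas2 and 0.18 for Trim30a, the lowest with any single array left out. Over all such runs 21 to 29 members were higher. The 4 transcription factors, the 3 genes of the ISG15 system and the 3 sensors were all higher, by medians of 0.04, 0.12 and 0.19, and 11 of 16 effectors, 3 of 6 GTPases and 4 of 5 class I genes were higher.

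The tumour against normal difference of the members was larger over the 12 other arrays, and was not tested for a difference from the 8. Over these (4 tumour and 2 normal bladders) the members' median difference was 0.28, with 30 of 37 higher, against 0.06 for all genes. Within the 8 arrays of low correlation (3 and 3) it was 0.01, with 21 of 37 higher. Over the 12 arrays the macrophage and neutrophil markers were higher by medians of 0.62 and 0.85 and the smooth muscle and luminal urothelium markers lower, at -1.75 and -0.91. Over the 8 arrays those medians were -0.11, 0.06, -0.03 and -0.20.

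The question of what palbociclib with CDDP changes was addressed by treated against tumour bladders. By limma 0 of 37 members and 0% of genes were called (smallest adjusted p of a member 1), and 1 member passed an unadjusted p under 0.05, beside 0.342% of genes. This was Oasl1, at 5.23 ± 0.15 in treated bladders and 5.47 ± 0.13 in tumour bladders (SD, n = 3 and 7), a difference of -0.24 (SE 0.11, 95% interval -0.46 to -0.01). Oas1a and Oas2 differed by -0.62 (95% interval -1.38 to 0.14) and -0.51 (-1.27 to 0.25). Of the 37 members 4 were higher and 33 lower in treated bladders, with a median difference of -0.15, where all genes had a median of -0.02 and 42.6% higher. Over the alternatives run, the number of members higher ranged from 2 to 12 and their median from -0.23 to -0.02. Those alternatives include leaving out the arrays of low correlation, which hold tumour bladders 3, 4 and 5 but no treated bladder. Groups without overlap were found for 0 members and 0.129% of genes. All 6 GTPases, all 3 sensors and all 3 ISG15 genes were lower, by medians of -0.12, -0.20 and -0.10, as were 14 of 16 effectors. B2m was higher by 0.47 (95% interval -1.36 to 2.30), and without treated bladder 3 it was lower, at -0.55. Marker lists shifted alongside: macrophage and neutrophil medians were -0.36 and -0.41, and luminal urothelium and smooth muscle medians 0.75 and 0.70. Their part in the members' differences was not tested.

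In treated against normal bladders the counts were 0 of 37 called and 0 at an unadjusted p under 0.05 in limma, beside 0% and 0.358% of genes, and no member's groups were apart, beside 0.65% of genes. The members' median difference was -0.03 (13 higher, 24 lower), against -0.01 for all genes. The largest differences were those of Gbp7, -0.35 (95% interval -1.03 to 0.33), B2m, 0.31 (-1.62 to 2.25), and Oas1a, 0.23 (-0.57 to 1.04). Without treated bladder 3 the B2m difference was -0.71, and without the 8 arrays of low correlation it was -0.91. All 3 intervals include 0 and are wide, so no likeness of the groups is shown. All 6 GTPases were lower in treated bladders. Over the 12 arrays, with 2 normal bladders left, the median was 0.07 with 23 of 37 members higher, and after centring each array on its median 25 of 37 were higher.

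Metastases were compared with tumour bladders, with the palbo metastasis left out. No member was called (0 of 37, smallest adjusted p 0.861, beside 0% of genes) and 0 passed an unadjusted p under 0.05 in limma, beside 5.79% of genes. B2m was at 13.59 ± 0.51 in metastases and 12.18 ± 1.63 in tumour bladders (SD, n = 4 and 7), a difference of 1.41 (95% interval -0.25 to 3.07, limma adjusted p = 0.861). Oas1a and Oas2 differed by -0.50 (95% interval -1.19 to 0.19) and -0.45 (-1.14 to 0.24). The members' median difference was -0.08 (11 higher, 26 lower), against -0.03 for all genes, and 0 members had groups without overlap, beside 0.504% of genes. Among the roles, 13 of 16 effectors were lower and 3 of 6 GTPases higher. Without metastasis 1, 5 of 37 members were higher in metastases.

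Against normal bladders, metastases had 0 of 37 members called (smallest adjusted p 0.742, beside 0% of genes), 0 at an unadjusted p under 0.05 in limma (6.91% of genes) and 0 without overlap (2.85% of genes). B2m differed by 1.25 (95% interval -0.53 to 3.03), Ifit1 by -0.36 (-1.05 to 0.33) and Oas1a by 0.35 (-0.38 to 1.09). Without the 8 arrays of low correlation Ifit1 was at 0.25, and without normal bladder 4 at -0.17. On those 8 alone Oas1a was at -0.17, and without metastasis 1 at 0.10. The median was 0.07, with 26 members higher and 11 lower, against -0.01 for all genes. Without metastasis 1 the number higher was 14. The macrophage markers were higher by a median of 0.81 and the smooth muscle markers lower, at -1.45, and their part was not tested. The 5 comparisons share tumour, normal, treated or metastasis arrays, so their counts do not stand as separate observations.

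**Figure D4:**
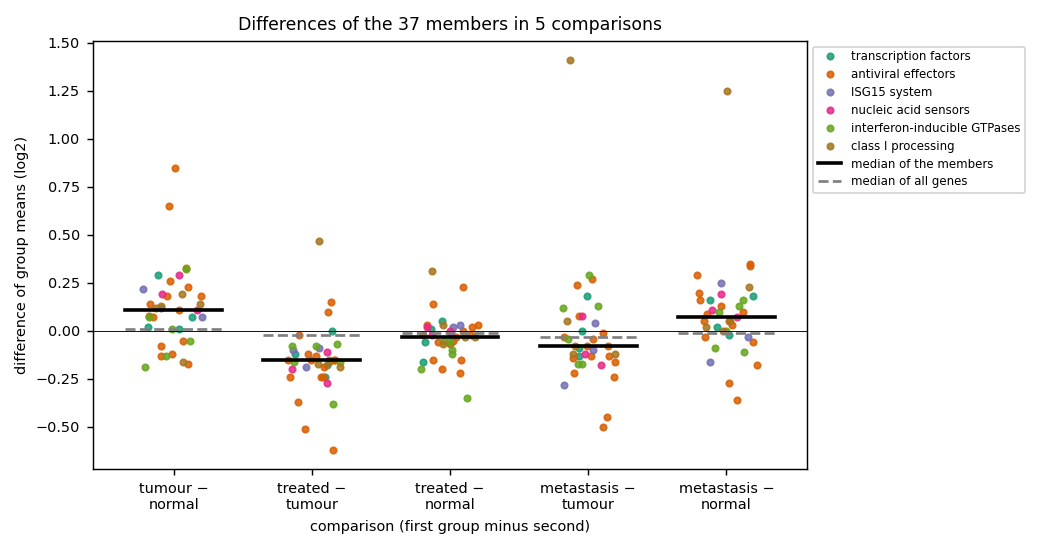
Log2 differences of group means for the 37 members (points, coloured by role) in the 5 comparisons, first group minus second, with a solid bar at the members' median and a dashed bar at the median of all genes. The members' medians are 0.11, -0.15, -0.03, -0.08 and 0.07 from left to right, and B2m is the high point in both comparisons of metastases.

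The members followed each other closely over the 12 other arrays. Each member's correlation with the mean of the others had a median of 0.83 over these arrays, and 34 of 37 members were above 0.5, against 7.76% of the other 30105 genes. Of the 666 pairs of members 93.5% correlated above 0, with a median r of 0.66. Herc6 (0.98), Oasl2 (0.97), Dhx58 (0.95) and Oas2 (0.94) followed the rest most closely. Ifit3 (-0.11), B2m (0.13) and Oasl1 (0.28) did not follow. Over the 8 arrays of low correlation the median was 0.19 with 7 of 37 above 0.5, against 16.2% of other genes, and the median r over pairs was 0.04. Mx1 (0.88 and 0.87) and Psmb9 (0.82 and 0.88) had high values over the 12 and over the 8. These correlations are descriptions over arrays of the same series, and the members were listed for a known common induction. Tumour bladder 6, the palbo metastasis and metastasis 1 are 3 of the 12 arrays.

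**Figure D5:**
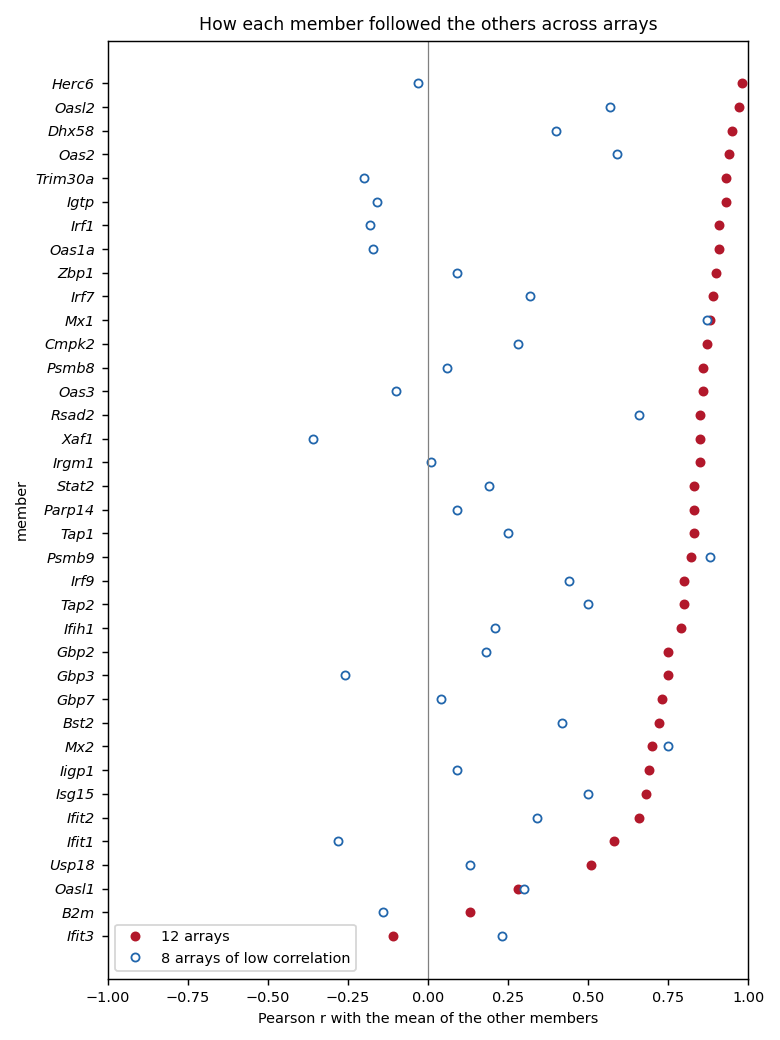
Pearson correlation of each member with the mean of the other members, over the 12 other arrays (filled) and the 8 arrays of low correlation (open). The filled points lie at 0.51 or higher for 34 members and the 3 below are Oasl1, B2m and Ifit3, while the open points scatter around a median of 0.19.

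Members with and without an ISRE core in their window overlapped in how closely they followed the rest. The 16 members with a core had a median r of 0.77 (from -0.11 for Ifit3 to 0.93 for Trim30a and Igtp), and the 12 with a window and no core had a median of 0.86 (0.28 for Oasl1 to 0.98 for Herc6). Outside the list, the 8 genes most like the members' mean over the 12 arrays were Fmnl1 (r = 0.96), the predicted gene Gm9048 (0.95), Ddx60 (0.95), Limd2 (0.94), Aif1 (0.94), Ms4a4c (0.93), Slfn4 (0.93) and Ccl7 (0.93). Of these, Fmnl1, Ddx60, Limd2, Slfn4 and Ccl7 had their highest level on tumour bladder 6, and Aif1 and Ms4a4c on the palbo metastasis, while the highest level of Gm9048 was on normal bladder 6.

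Of 73 further genes of interferon signalling and class I presentation, 64 were measured. The 6 ligands did not follow the members over the 12 arrays, with r from -0.29 for Ifng, interferon gamma, to 0.07 for Ifnk. The receptor subunit Ifnlr1, part of the receptor for type III interferons, had an r of -0.68. Of 23 other induced genes 16 had r over 0.5, with Gbp9 and Cxcl9 (0.88 each), Gbp8 (0.86) and Cxcl10 (0.82) at the top and Ido1 (0.02), Isg20 (-0.06) and Ifitm3 (-0.12) at the bottom. Of 9 other class I genes 7 had r over 0.5, among them the immunoproteasome subunit Psmb10 (0.85) and the heavy chains H2-K1 (0.79) and H2-D1 (0.77), while Psme1 (0.33) and Pdia3 (0.31) were lowest. The numbers over 0.5 were 5 of 14 for sensing and induction, 4 of 9 for receptors and kinases, and 2 of 3 for negative regulators. Ifne, Ifnk, Tlr9, Ifng and Ifnlr1 had mean levels between 4.37 and 4.78, below the 40th percentile of all row means (5.1), so their values lie among dim rows. Of the other genes named here, Cxcl10 (mean 5.09) and Ido1 (4.87) also lay below that percentile. H2-K1 was at 9.03 on metastasis 1, 8.87 on the palbo metastasis and 8.55 on tumour bladder 6, and between 7.10 and 8.14 on the other 17 arrays. The genes named here other than Cxcl10, Tlr9 and Ifng were picked after their values were seen.

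In the 5 comparisons 0 of the 64 further genes were called. At an unadjusted p under 0.05 in limma there were 3 in tumour against normal bladders, all higher, 0 in either comparison of treated bladders, 6 in metastases against tumour bladders (3 higher, 3 lower) and 8 in metastases against normal bladders (6 higher, 2 lower). Over all genes the shares at that threshold were 4.25% in tumour against normal bladders, 0.342% in treated against tumour and 0.358% in treated against normal bladders, 5.79% in metastases against tumour bladders and 6.91% in metastases against normal bladders. Cxcl10, a chemokine for T cells induced by interferons, averaged 5.27 ± 0.43 in tumour bladders and 4.76 ± 0.14 in normal bladders, a difference of 0.51 (95% interval 0.15 to 0.88, limma adjusted p = 0.998). Rtp4, an induced antiviral gene, was higher by 0.51 (0.12 to 0.91) and Tlr9, the sensor of CpG DNA, by 0.45 (0.11 to 0.80). In treated bladders against tumour bladders the same 3 genes had the smallest p-values, with differences of -0.42 for Rtp4 (95% interval -0.89 to 0.04), -0.35 for Cxcl10 (-0.78 to 0.09) and -0.30 for Tlr9 (-0.71 to 0.10). All 3 intervals include 0. Both comparisons use the same tumour bladders, so the opposite signs are not separate observations and show no reversal under treatment. For treated against normal bladders the smallest p-values were those of Ifng (-0.26), the type I receptor subunit Ifnar1 (-0.26) and Ifi35 (-0.15), with intervals that include 0.

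In both comparisons of metastases the smallest p-values among the 64 were those of Tlr7, Irf8 and Ifng. The same metastases enter both, so the shared genes are not separate observations. Tlr7, an endosomal sensor of single-stranded RNA found in macrophages and plasmacytoid dendritic cells, was at 9.20, 9.59, 7.40 and 7.95 on metastases 1 to 4 and 10.04 on the palbo metastasis. It ran from 6.06 over 7.40 to 7.81 on tumour bladders and was at 6.26, 6.24, 6.98, 7.10 and 7.37 on normal bladders. All 4 metastases lay above all 5 normal bladders, and metastasis 3 lay among the tumour bladders. The difference was 1.32 against tumour bladders (95% interval 0.50 to 2.13, limma adjusted p = 0.841) and 1.75 against normal bladders (0.88 to 2.62, limma adjusted p = 0.717). Irf8, a factor of the myeloid lineage, was at 6.69, 6.29, 6.27 and 6.16 on metastases 1 to 4 and 6.65 on the palbo metastasis. On tumour bladders Irf8 ran from 5.78 over 6.02 to 6.25, and on normal bladders it was at 5.78, 5.82, 5.92, 5.73 and 5.93. It differed by 0.37 against tumour bladders (95% interval 0.13 to 0.60) and 0.52 against normal bladders (0.27 to 0.77). Ifng differed by -0.41 (-0.72 to -0.09) against tumour bladders and -0.44 (-0.78 to -0.11) against normal bladders, at levels among dim rows. In metastases against normal bladders 5 of the 64 genes had groups without overlap, Tlr7, Irf8, Cxcl10 and Sting1 above and Ifng below, beside 2.85% of all genes. Macrophage markers were also higher there, and their part was not tested.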

How the data were processed

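The deposited values were taken as log2 levels. The submitters' processing notes name RMA and Expression Console, whose versions are not given in the sources used here. The base was taken as 2 because RMA gives log2. Of 65956 rows, 30604 had 1 gene symbol in the platform annotation, 2146 had several and 33206 none. With 827 symbols updated through gene IDs and the row of highest mean kept for 355 genes, 30142 genes remained. All 20 arrays were fitted in limma 3.58.1 under R 4.3.3 with empirical Bayes variances, with two-sided tests of 5 comparisons, adjusted by Benjamini-Hochberg over the whole table, and 95% intervals for each difference. No count or depth exists for arrays. The code of the fit was run on simulated data with independent errors and known changes larger than the members' differences. That run did not imitate the arrays of low correlation and tested no smaller change.

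The members, lists and tests were chosen with earlier results of these data known. Genes given in detail are, in each comparison, the 3 members with the largest absolute difference, the 4 members of widest range, and the 3 further genes with the smallest p; the 8 genes most like the members were ranked by Pearson's r over 12 arrays. Genes named outside this rule were chosen after their values were seen. Arrays of low correlation had an SD above 0.30 in rows with means of 4.5 to 5.0 and a highest r below 0.25 with any array, computed on the 5317 rows whose mean reached 7. Replicate numbers are not stated to pair samples. Same-numbered arrays of different groups were compared by their deviations from their own group means, over rows whose mean reached 7. These deviations correlated from -0.594 to 0.322, above 0.1 in 2 of 20 pairs. Alternatives covered the samples in the fit, array weights, variance prior, a filter on dim genes, normalisation, centring, rows per gene, the replicate block, the palbo metastasis as a metastasis, the arrays of low correlation, and each array left out in turn. Some alleles and genes are not reported here.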

Additional observations from a re-analysis of the deposited data

Results flagged for a closer look

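Of 111 groups of 4 to 7 arrays examined (37 members in 3 groups), 7 held an array far from the others by Dixon's criterion (6.31%), where chance gives about 1 in 20. On tumour bladder 6, the highest of 7 tumour bladders, these were Xaf1 at 7.47, Usp18 at 6.55, Dhx58 at 6.00, Igtp at 6.87 and Tap1 at 6.56. Among the normal bladders, Rsad2 was at 5.84 on normal bladder 6 and Irgm1 at 6.39 on normal bladder 5, each the highest of 5. The 5 values on tumour bladder 6 come from 1 array and are not separate observations.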

How the results depend on the processing

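Members called at an adjusted p under 0.05 numbered 0 in each of the 5 comparisons under every alternative that was run. At an unadjusted p under 0.05 in limma, 3 members passed in tumour against normal bladders in the reported fit, beside 1281 of 30142 genes. With the replicate block 8 members passed (1771 genes) and with array weights 7 (3064 genes), so all genes moved as well. Without normal bladder 1 the count of members was 1 (945 genes) and without tumour bladder 7 it was 5 (2015 genes). In treated against tumour bladders the count of 1 (103 genes) became 0 with the replicate block (400 genes) and 5 with array weights (2511 genes). The block changed no call at the adjusted threshold. Over single arrays left out, the members' median difference ran from 0.05 to 0.15 in tumour against normal bladders, -0.23 to -0.09 in treated against tumour, -0.10 to 0.01 in treated against normal, -0.16 to -0.03 in metastases against tumour and -0.03 to 0.13 in metastases against normal. Under the other alternatives those medians ran from 0.01 to 0.28, -0.21 to -0.02, -0.03 to 0.07, -0.11 to -0.01 and -0.05 to 0.21 respectively. There the number of members higher in treated than in tumour bladders ran from 2 to 12, against 4 as reported. In treated against normal bladders the number of members higher was 13 as reported, 25 after centring arrays on their medians, 20 after quantile normalisation and 22 with the replicate block; it was 7 without treated bladder 1 and 8 without normal bladder 2. Signs turned for B2m in treated against tumour bladders, at -0.04 with array weights and from -0.55 without treated bladder 3 to 1.18 without treated bladder 2. In treated against normal bladders B2m turned to -0.71 with array weights, -0.21 with low correlation as a term, -0.91 without the 8 arrays of low correlation and ran from -0.71 without treated bladder 3 to 1.02 without treated bladder 2. Trim30a in tumour against normal bladders was -0.09 on the 8 arrays of low correlation. In metastases against normal bladders, Oas1a was -0.17 on those 8 and Ifit1 was 0.25 without them. The cause of these turns was not tested. Scaling also moved genes at large: of the genes at an unadjusted p under 0.05, 44.8% were higher in metastases than in normal bladders as reported, 67.6% after centring and 63.1% after quantile normalisation. In metastases against tumour bladders the shares were 41.7%, 61.9% and 61.3%, and in treated against normal bladders 58.3%, 87.0% and 66.3%, and in treated against tumour bladders 53.4%, 81.0% and 60.2%. In tumour against normal bladders the shares moved less, at 56.3%, 61.8% and 55.9%.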
